A study of Homo sapiens with 18 samples.

Results

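The comparison is DMSO against medium in HK-2 cells after 24 h. It holds 6 of the 18 arrays of the series: 3 of cells in culture medium with dimethyl sulfoxide (DMSO control, t24h) and 3 of cells in medium alone (medium control, t24h). They were chosen by their labels and paired by replicate number, 1 to 3. HK-2 is an immortalized human line of proximal tubular epithelial cells, and no other line or donor was measured. Both groups shared a growth medium that held insulin (5 µg/ml), hydrocortisone (36 ng/ml), glucose (5 mM) and the growth factor EGF (10 ng/ml), and treatment began 24 h after seeding at about 90% confluency. The sources used here give no DMSO dose. The text on the series gives 12 h for the shorter time and the sample labels 24 h, which were used. Other arrays of the series serve only as reference: DMSO and medium at 48 h (3 arrays each) and ethanol at 24 h (3 arrays).

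DMSO is a small polar solvent that mixes with water, passes through membranes and dissolves compounds that water does not. Cell assays therefore give it to control cells at the dose that carries the test compound, and a difference between DMSO and medium is the part of a response that belongs to the solvent. At high doses it is known to alter membranes and to push some cell lines towards differentiation. Mammalian cells handle sulfoxides with enzymes such as the methionine sulfoxide reductases, which repair oxidised methionine.

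RNA was measured on Affymetrix HG-U133 Plus 2.0 arrays, where a probe set is a group of short probes for a transcript. Values are log2 expression, so a difference of 1 is 2-fold. A gene was tested where its brightest probe set lay above 4, a level near background, on at least 3 of the 18 arrays, which left 10832 genes. The 6 arrays had alike signal, with medians over all probe sets between 2.85 and 2.91 and 39.9% to 40.3% of probe sets above 4. The median SD per gene was 0.153 in either group, and the median SD of the 3 paired differences was 0.112.

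The cells carried markers of renal epithelium but not those of the mature proximal tubule. PAX8, a transcription factor of kidney epithelium, had a mean of 10.87 ± 0.15 on the DMSO arrays and 10.75 ± 0.13 on the medium arrays (SD, n = 3), and 7 of 8 renal epithelial markers were above 4. KRT18, an epithelial keratin, was at 13.17 ± 0.05 and 13.09 ± 0.13. Of the 7, 4 had higher means with DMSO and 3 lower. The lower ones were EPCAM (12.82 ± 0.08 with DMSO, 13.04 ± 0.05 in medium), CDH1 (7.00 ± 0.40, 7.21 ± 0.21) and CDH2 (9.15 ± 0.13, 9.28 ± 0.19). At an unadjusted limma p under 0.05, 2 of the 7 were lower and 0 higher, beside 7.63% and 3.74% of all genes, and none passed. None of the 9 proximal tubule markers on the array, among them the uptake receptors LRP2 and CUBN and the brush border enzymes ANPEP and GGT1, was above 4 on any of the 6 arrays (highest 3.77). The same held for all 6 endothelial, all 6 leukocyte and all 7 distal tubule and collecting duct markers. Of the podocyte list 3 of 5 markers were above 4, with PTPRO, a membrane phosphatase, at 13.26 ± 0.13 with DMSO and 13.12 ± 0.30 in medium, and PODXL and SYNPO the others. Of the keratinocyte list 1 of 6 was above 4, KRT10, at 10.03 ± 0.11 and 10.21 ± 0.12. Of the fibroblast list 3 of 8 markers were above 4, and the list's mean lay between 5.40 and 5.55 on DMSO arrays and between 5.50 and 5.63 on medium arrays. The 3 were LUM, a matrix proteoglycan (9.63 ± 0.12 with DMSO, 10.11 ± 0.20 in medium), DCN, another (11.97 ± 0.32, 12.01 ± 0.28), and the collagen COL1A1 (8.39 ± 0.24, 8.68 ± 0.20). All 3 were lower with DMSO in the mean, between -0.48 and -0.04 with a median of -0.30, and none passed. PDGFRA, PDGFRB, COL1A2, COL3A1 and THY1 were under 4. The part of these markers in the results below was not tested.

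DMSO at 24 h left the expression of most genes close to medium. Differences of the probe sets that stood for the genes lay between -0.92 and 0.90 on the log2 scale. None of these reached 2-fold, and 90.7% of the 10832 genes differed by less than 0.25. Another probe set of PPP1CB, described at the end, differed by -1.03. With limma and the replicate number as a block, 11 genes passed an adjusted p of 0.05, which is 0.102% of the genes tested: 9 fell (0.0831%) and 2 rose (0.0185%). The 9 were ACSL4, ARHGAP5, ND6, HLA-F-AS1, TOB1, SDCBPP2, NCKAP1, LIMD1 and ZNF92, and the 2 were FKBP8 and VRK3. These calls depend on the fit: 19 of the 28 settings tried gave 0 genes, among them leaving out the block, taking only the 6 arrays at 24 h, and leaving out any array at 24 h. Each of the 11 had its direction in 3 of 3 pairs, which the test on pairs favours; of all 10832 genes 2161 were lower and 2171 higher in 3 of 3 pairs.

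At an unadjusted p under 0.05 there were 1231 genes, 11.4% of those tested, against 541.6 expected by chance. Genes on the same arrays are not independent, and the count depends on the fit. It was under 541.6 without the replicate block and with all 18 arrays, and above it in other settings. Of the 1231 genes, 826 were lower with DMSO against 405 higher. The lower ones were mostly among well-expressed genes. Among the 2167 genes with the highest levels (means of 10.4 to 15.97) 254 were lower and 21 higher, and among the 2167 with the lowest 88 were lower and 109 higher. Over all genes the median difference was 0.00, with 5241 genes lower and 5591 higher. Without overlap between the 3 DMSO and the 3 medium values there were 1020 genes (9.42%), of which 632 were lower (5.83%) and 388 higher (3.58%).

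**Figure D1:**
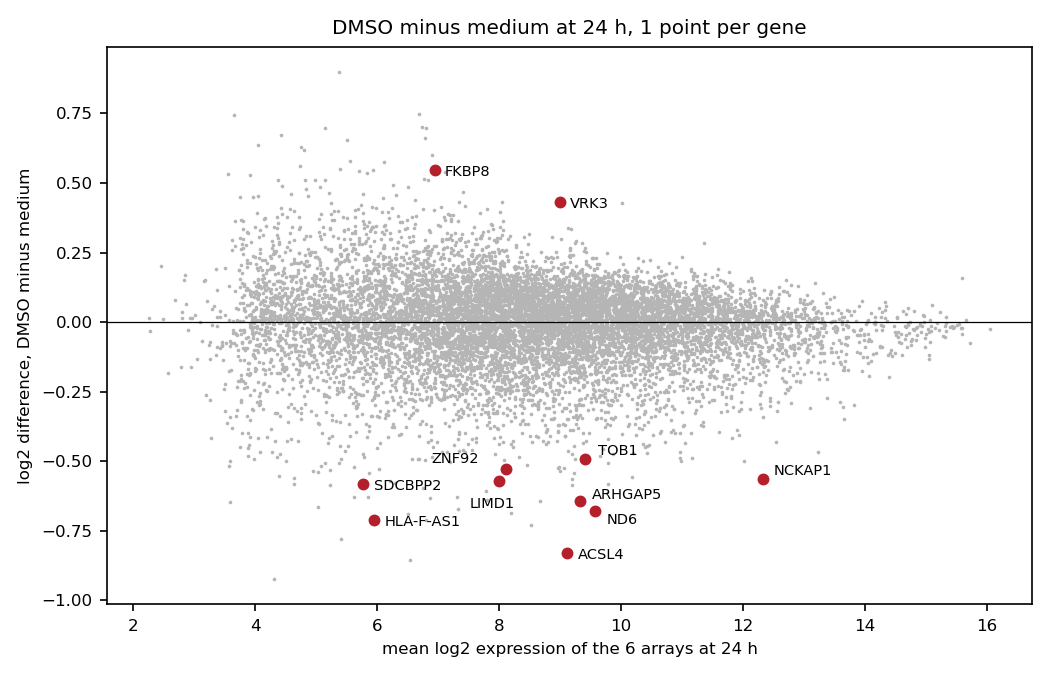
Each point is a gene; the horizontal axis is its mean log2 expression over the 6 arrays at 24 h and the vertical axis its log2 difference, DMSO minus medium, with the 11 genes that passed in red and named. All differences lie between -0.92 and 0.90, and 9 of the 11 red points are below 0.

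Lipid activation was the role of the gene with the largest fall among those that passed. ACSL4 (202422_s_at) joins coenzyme A to long-chain polyunsaturated fatty acids such as arachidonic acid, the step that lets them enter membrane phospholipids, and its level sets how prone many cells are to ferroptosis. With DMSO its log2 expression was 8.57, 8.52 and 9.01 in replicates 1 to 3, and in medium it was 9.37, 9.41 and 9.82. The groups did not overlap, and replicate 3 was the highest in both. The paired differences were -0.79, -0.89 and -0.81, a mean of -0.83 ± 0.09 (limma adjusted p = 0.0304), or 1.78-fold lower. Here and after each later difference, ± is limma's moderated standard error from the fit of 12 arrays, 3 pairs at each time.

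A pair of the genes that fell act on the actin cytoskeleton. ARHGAP5 (233849_s_at) encodes a GTPase-activating protein, which speeds the hydrolysis of GTP by small GTPases. It was at 8.99, 9.17 and 8.85 with DMSO and at 9.63, 9.67 and 9.64 in medium. The 3 medium arrays lay within a narrow band and every DMSO array was below it, for a difference of -0.64 ± 0.07 (limma adjusted p = 0.0304). NCKAP1 (207738_s_at) is a core subunit of the WAVE complex, which passes signals from Rac to branched actin. It was at 12.01, 11.89 and 12.26 with DMSO and at 12.61, 12.60 and 12.65 in medium, a difference of -0.56 ± 0.08 (limma adjusted p = 0.0451). It was the brightest of the 11 genes, and again the medium arrays were tight and the DMSO arrays lower and more spread.

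ND6 (1553575_at) is a subunit of respiratory complex I and the only protein-coding gene on the light strand of mitochondrial DNA. It was at 9.09, 9.29 and 9.31 with DMSO and at 9.76, 9.97 and 9.99 in medium. Replicate 1 was the lowest of both groups, and the paired differences of -0.67, -0.69 and -0.68 were nearly equal (-0.68 ± 0.08, limma adjusted p = 0.0375).

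TOB1 (202704_at) is an antiproliferative protein that brings the CCR4-NOT deadenylase to messenger RNAs. It was at 9.24, 9.18 and 9.09 with DMSO and at 9.69, 9.66 and 9.64 in medium. All DMSO arrays were below all medium arrays, by -0.49 ± 0.06 (limma adjusted p = 0.0447). LIMD1 (222762_x_at) is a LIM-domain scaffold of Hippo signalling and of microRNA silencing. Its values were 7.75, 7.89 and 7.51 with DMSO and 8.28, 8.43 and 8.17 in medium, lower by -0.57 ± 0.08 (limma adjusted p = 0.0451) with no overlap. ZNF92 (235170_at) encodes a zinc finger protein and stood nearest to the threshold, at 7.54, 7.97 and 8.04 against 8.24, 8.43 and 8.47. The groups did not overlap, the difference was -0.53 ± 0.07 (limma adjusted p = 0.0498), and the first pair was the widest at -0.70.

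Both noncoding transcripts that passed fell. HLA-F-AS1 (222279_at), antisense to the class I gene HLA-F, was at 5.41, 5.67 and 5.71 with DMSO and at 6.36, 6.23 and 6.34 in medium, a difference of -0.71 ± 0.09 (limma adjusted p = 0.0447). HLA-F itself differed by 0.01 ± 0.07. SDCBPP2 (1569952_x_at) is a processed pseudogene of syntenin, SDCBP, and probes cannot be taken to separate copies so alike. It was at 5.15, 5.68 and 5.62 with DMSO and at 5.70, 6.44 and 6.05 in medium. Every pair was lower, by -0.58 ± 0.08 on average (limma adjusted p = 0.0447), while SDCBP differed by -0.09 ± 0.06.

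VRK3 and FKBP8 were the genes that rose. VRK3 (221998_s_at) is a kinase-like protein of the vaccinia-related kinase family that dampens ERK signalling through the phosphatase VHR. Its values were 9.10, 9.22 and 9.32 with DMSO and 8.71, 8.75 and 8.88 in medium, without overlap, for a difference of 0.43 ± 0.06 (limma adjusted p = 0.0451). FKBP8 (208255_s_at) is an anchor in the outer mitochondrial membrane that binds BCL2 and acts as a mitophagy receptor. It was at 7.58, 6.73 and 7.33 with DMSO and at 7.15, 6.11 and 6.74 in medium. Replicate 2 was the lowest of both groups by far, so the groups overlapped and only the pairing separated them. The paired differences were 0.43, 0.62 and 0.59 (mean 0.55 ± 0.07, limma adjusted p = 0.0447).

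**Figure D2:**
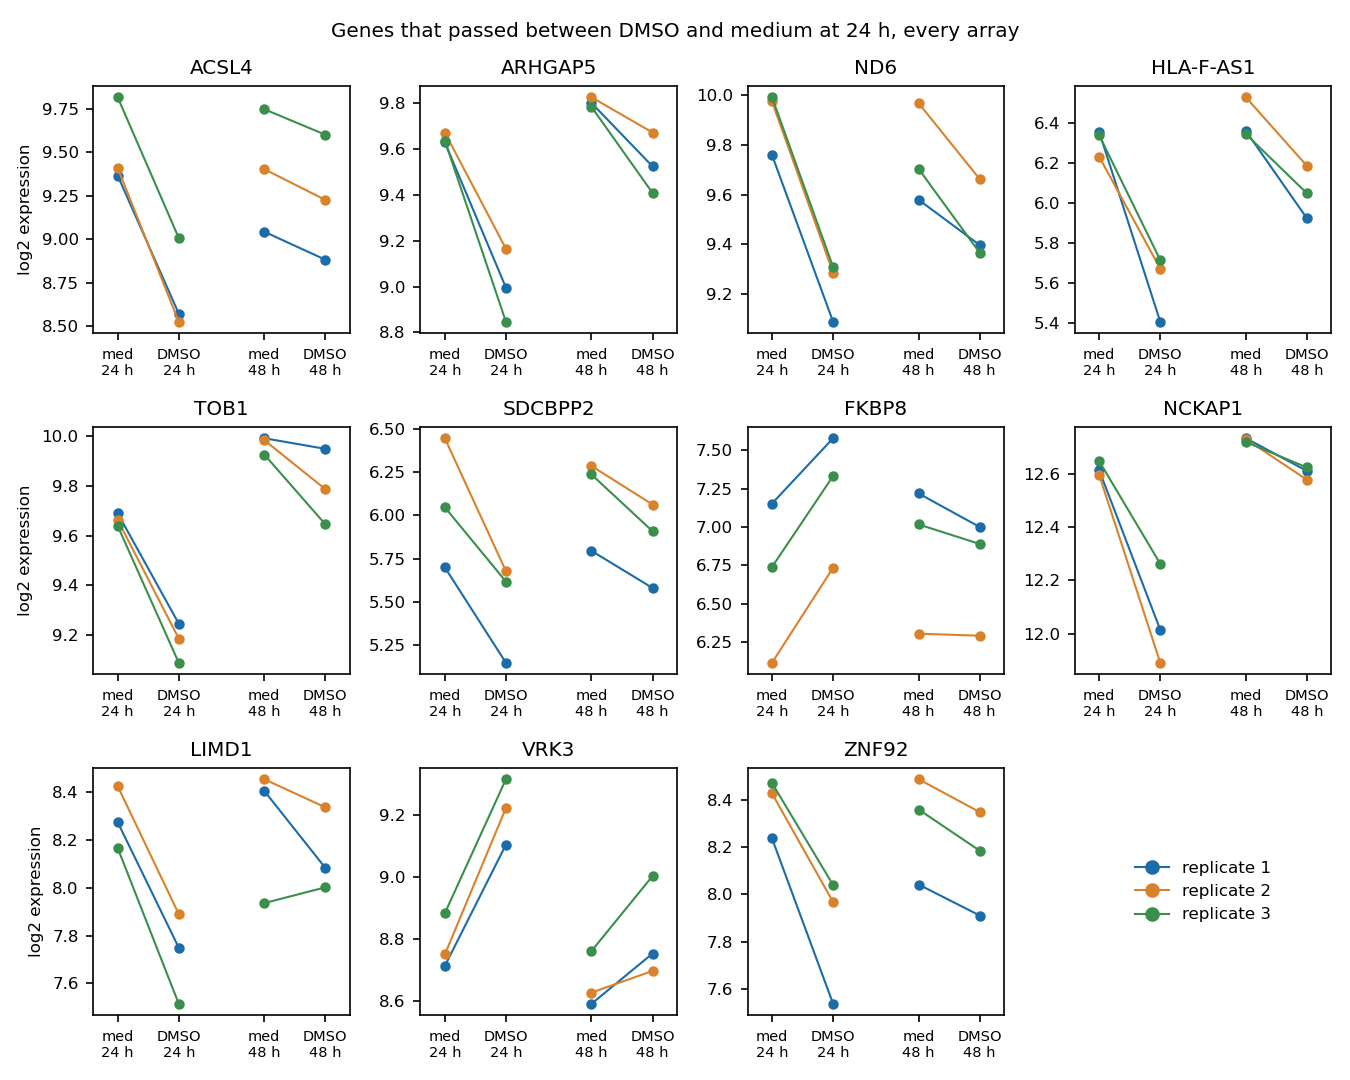
Each panel is a gene that passed at 24 h, with log2 expression on the vertical axis (the scale differs between panels) and lines joining the medium and DMSO arrays of a replicate at 24 h and at 48 h. At 24 h all lines of 9 genes go down and those of FKBP8 and VRK3 go up. The mean differences are between -0.83 and 0.55 at 24 h and are smaller in size at 48 h in all 11. The genes were chosen by their 24 h values, which by itself favours smaller sizes at 48 h.

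Promoter sequence is shown for some of the genes that passed, so that those that fell and those that rose can be compared. RefSeq promoter entries (GRCh38.p14) matched 7 of the 11 genes. The 250 bases upstream of the start are given for 3 that fell and 1 that rose, 5′ to 3′ on the gene's strand, with matches to the motifs searched in capitals: the GC box GGGCGG and the CCAAT box CCAAT, each on either strand.
ACSL4, chrX:109733258-109733507, minus strand: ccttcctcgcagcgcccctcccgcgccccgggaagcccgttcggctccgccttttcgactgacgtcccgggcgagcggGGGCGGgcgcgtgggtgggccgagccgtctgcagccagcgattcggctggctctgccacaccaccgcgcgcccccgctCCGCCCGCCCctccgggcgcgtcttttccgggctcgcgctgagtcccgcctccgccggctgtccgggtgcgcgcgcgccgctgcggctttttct
ARHGAP5, chr14:32077054-32077303, plus strand: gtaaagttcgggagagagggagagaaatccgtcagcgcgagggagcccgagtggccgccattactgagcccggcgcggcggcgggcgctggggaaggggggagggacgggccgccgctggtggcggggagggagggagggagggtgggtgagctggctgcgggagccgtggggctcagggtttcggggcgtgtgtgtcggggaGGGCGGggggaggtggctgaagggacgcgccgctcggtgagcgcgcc
TOB1, chr17:50867979-50868228, minus strand: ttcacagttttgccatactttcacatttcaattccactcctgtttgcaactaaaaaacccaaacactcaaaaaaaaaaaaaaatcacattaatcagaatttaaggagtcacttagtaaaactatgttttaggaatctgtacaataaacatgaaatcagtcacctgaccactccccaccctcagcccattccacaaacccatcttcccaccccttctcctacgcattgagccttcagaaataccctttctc
VRK3, chr19:50025373-50025622, minus strand: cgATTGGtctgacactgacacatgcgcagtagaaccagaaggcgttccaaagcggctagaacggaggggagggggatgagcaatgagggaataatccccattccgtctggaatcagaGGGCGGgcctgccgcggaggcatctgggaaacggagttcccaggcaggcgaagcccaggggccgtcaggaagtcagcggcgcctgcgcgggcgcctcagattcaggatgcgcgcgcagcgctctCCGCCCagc
The windows of ACSL4 and ARHGAP5 are rich in G and C (77.2% and 74.4%), that of VRK3 less so (64.4%), and that of TOB1 is not (38.4%), where the median over the tested genes' promoters is 65.2%. The GC box, the binding letters of the SP family, occurs at 3 sites upstream of ACSL4, 1 of ARHGAP5, 2 of VRK3 and 0 of TOB1. It was found in 6 of the 7 promoters, against 68.7% of the 8979 promoters of tested genes. CCAAT was found in 3 of 7 (35.8% of tested promoters) and TATAAA in 0 of 7 (4.9%). The cyclic AMP element TGACGTCA and the E box CACGTG were in 0 of 7, against 3.0% and 9.4%. The AP-1 site TGANTCA and the antioxidant element TGACNNNGC were each in 1 of 7, that of ZNF92 in both cases, against 3.5% and 12.3%. A match is a description of the letters, not of binding.

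Other probe sets of the same genes did not show the differences of the probe sets that stood for them. Of the 11 genes, 8 had another probe set past the level for testing, 12 in all, and 6 of these 12 had the same sign. None of the 12 had the same sign at an unadjusted p under 0.05. Both other probe sets of ACSL4, at differences of 0.11 and 0.07, were dim (medium means of 4.47 and 5.06). The second probe set of TOB1 was about as bright as the first (9.23 with DMSO, 9.14 in medium), and it was higher with DMSO in 3 of 3 pairs, by 0.10. For FKBP8 the other probe set was lower in 3 of 3 pairs, by -0.26 (unadjusted p = 0.0222), against the rise of the first. LIMD1 had a dim probe set that was 0.29 higher in 3 of 3 pairs (unadjusted p = 0.0486), and the other 3 of ARHGAP5 differed by -0.03, -0.08 and -0.06. NCKAP1 came nearest, at -0.21 in its second probe set (2 of 3 pairs lower). Over all 5302 genes with several probe sets, 54.3% of 8898 other probe sets had the sign of the first. Which part of a transcript each probe set reads was not tested.

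**Figure D3:**
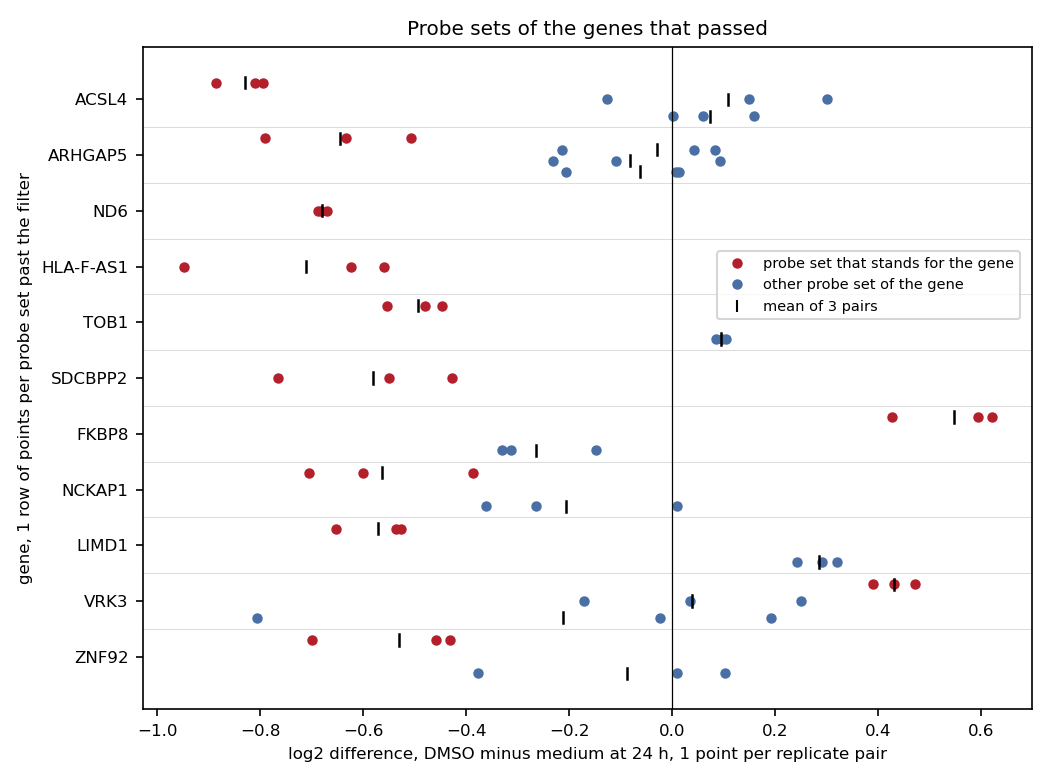
For each gene that passed, points are the 3 paired log2 differences (DMSO minus medium at 24 h, horizontal axis) of the probe set that stands for the gene in red and of its other probe sets past the level in blue, with black bars for means. The red points lie on 1 side of 0 in every gene, whereas only 6 of the 12 blue means share the sign of the red mean.

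The arrays at 48 h share no array with those at 24 h, although they enter the same fit. Of the 11 genes, 10 had the 24 h sign at 48 h and all 11 had a smaller difference there. The 11 were chosen by their 24 h values, which by itself favours a smaller difference at 48 h. At an unadjusted p under 0.05 there were 6 of 11, against 5.59% of all genes, but no gene passed at 48 h with limma (605 at an unadjusted p under 0.05). Both times share the same error per gene in the fit, so genes chosen for a small p at 24 h tend to have a small error at 48 h. The 6 of 11 is therefore not a separate test. HLA-F-AS1 differed at 48 h by -0.36 ± 0.09, ARHGAP5 by -0.27 ± 0.07, ND6 by -0.27 ± 0.08, SDCBPP2 by -0.25 ± 0.08 and TOB1 by -0.17 ± 0.06, each lower in 3 of 3 pairs. VRK3 was 0.16 ± 0.06 higher. Their adjusted p at 48 h were 0.799 to 0.883. ACSL4, the largest fall at 24 h, differed by -0.16 at 48 h, and LIMD1, NCKAP1 and ZNF92 by -0.12, -0.12 and -0.15. FKBP8 was lower at 48 h in all 3 pairs, by -0.22, -0.01 and -0.13. No gene passed in the test of the difference between both times (356 at an unadjusted p under 0.05, 3.29%).

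Over all genes at an unadjusted p under 0.05 at 24 h, the 11 included, the sign was the same at 48 h in a larger share than over all genes tested. Of the 826 genes lower at 24 h, 702 (85.0%) were lower at 48 h, where 45.1% of all genes were lower. Of the 405 higher ones, 328 (81.0%) were higher at 48 h, where 54.9% of all genes were higher. The mean differences at both times correlated at r = 0.37 across 10832 genes, which are not independent; the arrays of both times carry the same replicate numbers. Within 24 h the 3 paired differences correlated with each other at 0.226 to 0.262 across genes, and within 48 h at 0.026 to 0.104.

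Ethanol, the other solvent of the series, was set against the same 3 medium arrays, so the values are given side by side only. Of the 11 genes, ethanol minus medium at 24 h was above 0 in 10, and over all genes it was above 0 in 43.1%. ACSL4 was at 9.52, 9.82 and 11.37 with ethanol, the last array far above the others, for a difference of 0.71 where DMSO had -0.83. HLA-F-AS1 was at 6.79, 7.22 and 7.06 (0.72, with DMSO -0.71), ND6 at 10.39, 10.66 and 10.37 (0.56, with DMSO -0.68) and ARHGAP5 at 9.78, 10.12 and 10.23 (0.40, with DMSO -0.64). TOB1 was 0.20 higher with ethanol (with DMSO -0.49). In HLA-F-AS1, ND6, ARHGAP5 and TOB1 every ethanol array was above every medium array, as in 5.61% of all genes. VRK3 and FKBP8 differed by 0.08 and 0.11 with ethanol, and ZNF92 by -0.02.

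The 10 genes next outside the threshold were all lower, and TCOF1, next after them, was higher (0.38 ± 0.06, limma adjusted p = 0.0847). Beside the genes described below, the 10 held ZC3HAV1L (-0.46), PPFIBP1 (-0.56), NUDT12 (-0.43) and ZFHX3 (-0.42). SEC24D, which picks cargo for COPII vesicles, was at 7.66, 7.90 and 7.98 with DMSO and 8.61, 8.50 and 8.48 in medium (-0.69 ± 0.10, limma adjusted p = 0.0712). TMX1, a thioredoxin-like protein of the endoplasmic reticulum membrane, had -0.39 ± 0.06 (limma adjusted p = 0.0759), and SCOC, a Golgi coiled-coil protein, -0.40 ± 0.06. ATE1, the arginyltransferase of the N-degron pathway, had -0.64 ± 0.10, with 3 medium arrays all at 8.99. RTKN2 had the widest difference of the genes tested, -0.92 ± 0.15, but its DMSO values of 3.87, 3.82 and 3.87 lay under 4, so the size is not exact. It met the level for testing through its medium arrays at 24 h (5.22, 4.74 and 4.37), the group where it was high. Its DMSO and medium arrays at 48 h and its ethanol arrays at 24 h were all under 4, so its place among the genes tested rests on that group. At an adjusted p under 0.1 there were 53 genes, 46 lower and 7 higher.

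By size, the other large differences without overlap among genes with a mean above 6 did not pass. The lower ones were TMA16, a ribosome assembly factor (-0.86 ± 0.20), CEP97, a centriole cap protein (-0.67 ± 0.13), NIPSNAP3A (-0.64 ± 0.11), ANKRD44 (-0.63 ± 0.12) and TRAPPC13, of the TRAPP tethering complex (-0.63 ± 0.21). CEP97 was lower at 48 h as well, by -0.43 in 3 of 3 pairs. The widest higher difference was RAB11FIP3, an effector of Rab11 in endosome recycling, at 7.30, 6.78 and 7.09 with DMSO against 6.27, 6.13 and 6.53 in medium (0.75 ± 0.13, limma adjusted p = 0.0956), with 0.32 at 48 h. RNA45SN5, the ribosomal RNA precursor, had 0.70 ± 0.13 with pairs of 1.06, 0.69 and 0.35, and -0.01 at 48 h. GNAO1, the alpha subunit of the G protein Go, was at 6.77, 7.09 and 7.51 against 6.43, 6.46 and 6.50 (0.66 ± 0.13), with 0.02 at 48 h, where all arrays stood near the medium level. ZSWIM9 (0.51), GPC2, a glypican (0.51), GPRASP3 (0.43), POLD4, the small subunit of DNA polymerase delta (0.43), AP1S1, of the AP-1 clathrin adaptor (0.43), and MTCL2 (0.42) followed. In POLD4 the 3 pairs were nearly equal at 0.41, 0.44 and 0.45.

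Gene lists were described by their counts and medians. Of the members of 36 pathway lists, ACSL4 and ND6 passed and no other did, and all 36 medians lay between -0.08 and 0.07, beside 0.00 over all genes. Counts below are of tested members at an unadjusted p under 0.05, beside 7.63% of all genes lower and 3.74% higher. Where means above 0 are counted, 5591 of all 10832 genes had such a mean at 24 h.

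Lipid genes held single members that were lower within lists that were level. Among 15 genes of acyl-CoA synthesis and lipid activation 3 were lower and 1 higher, with a median of 0.01. The lower ones were ACSL4, ACSL1 and ACSS3, the last near background at means of 3.58 with DMSO and 3.98 in medium. ACSL1, the main long-chain acyl-CoA synthetase beside ACSL4, was at 11.63, 11.98 and 11.57 with DMSO and 11.99, 12.40 and 12.00 in medium (-0.41 ± 0.08, limma adjusted p = 0.0956), and at -0.18 at 48 h. LPCAT3, which puts the activated polyunsaturated chains into phospholipids, had 0.25 ± 0.11. Of 15 genes of fatty acid oxidation 3 were lower and 1 higher: ACADM, the medium-chain dehydrogenase (-0.44 ± 0.08), EHHADH of the peroxisome (-0.37 ± 0.11) and the carnitine carrier SLC25A20 (-0.29 ± 0.11), against CPT1A, the gate of mitochondrial import (0.25 ± 0.10). Of 10 genes of fatty acid synthesis 2 were lower, the elongase ELOVL6 (-0.28 ± 0.08) and the citrate lyase ACLY (-0.17 ± 0.06), and of 15 cholesterol genes 2 were lower and 1 higher. None but ACSL4 passed.

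COPII genes, whose coat buds vesicles from the endoplasmic reticulum, were the list with the largest share, 6 lower and 1 higher of 16, with a median of -0.05. Beside SEC24D the lower ones were the coat subunit SEC23A (-0.37 ± 0.08), the cargo adaptors SEC24A (-0.30 ± 0.07) and SEC24B (-0.20 ± 0.07), the cargo receptor MCFD2 (-0.30 ± 0.10) and the GTPase SAR1B (-0.16 ± 0.06), all in 3 of 3 pairs. SEC24C, another cargo adaptor, was 0.16 ± 0.07 higher in 3 of 3 pairs, and the coat subunit SEC13 differed by 0.09 ± 0.07. At 48 h SEC23A differed by -0.12, SEC24A by 0.03 and the list's median was 0.00. None of the 16 passed, and the list was drawn up with the value of SEC24D known, as were those of lipid activation, mitochondrial messages and G proteins with theirs.

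Of the messages of the mitochondrial genome other than ND6, most were near the top of the arrays' range. COX1, COX2, ND2, ND4 and ATP6, all from the heavy strand, stood between 15.1 and 15.9 on every array and differed by -0.02 to 0.16. The highest value of any probe set on the 6 arrays was 15.99 to 16.1, so a difference in these 5 may not show. COX3, also from the heavy strand, had a dimmer probe set, as ND6 had, and a difference of -0.34 ± 0.08 in 3 of 3 pairs (9.09 ± 0.19 with DMSO and 9.43 ± 0.09 in medium, SD, n = 3), and did not pass. Among 28 nuclear genes of the respiratory chain 2 were lower and 2 higher, between -0.24 (SDHD) and 0.18 (NDUFS1). TFAM, the packaging and transcription factor of mitochondrial DNA, had -0.22 ± 0.09.

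Stress lists gave few members. None of the 9 enzymes of sulfoxides and sulfur oxidation reached an unadjusted p under 0.05, with 8 of 9 means above 0 and a median of 0.05. MSRA, a methionine sulfoxide reductase, was at 7.12, 7.15 and 6.79 with DMSO and 6.90, 6.81 and 6.81 in medium, and replicate 3 did not share the sign of the others. The 9 genes of osmotic stress gave 0 in either direction and a median of -0.08, the lowest of the 36, with NFAT5 at 0.01 ± 0.09. Of 27 genes of the NRF2 response 2 were lower, SOD2 (-0.39 ± 0.10) and NFE2L2 itself (-0.27 ± 0.08). Of 22 genes of the unfolded protein response XBP1 and DNAJC3 were lower (-0.28 ± 0.09 and -0.19 ± 0.08), and XBP1 was lower at 48 h too, by -0.37. Heat shock proteins (13), p53 targets (13), metallothioneins (10), xenobiotic metabolism (12) and glycolysis (17) gave 0 in either direction. Of 13 kidney injury markers IGFBP7 was lower (-0.27 ± 0.10). None of these passed.

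Cell cycle lists had medians slightly above 0. Of 30 genes of mitosis 23 had means above 0 at 24 h, beside 5591 of all 10832 genes. The list's median was 0.07 at 24 h and 0.10 at 48 h, beside 0.00 and 0.01 over all genes. At an unadjusted p under 0.05, 4 were higher and 2 lower. The higher ones were CCNB2, the B2 cyclin (0.17 ± 0.06), KIF20A (0.15 ± 0.06), MKI67 (0.19 ± 0.07) and the spindle factor TPX2 (0.15 ± 0.06), and the lower ones were the kinases TTK (-0.13 ± 0.05) and CDK1 (12.26 with DMSO against 12.40 in medium). Of 29 genes of DNA replication 20 had means above 0 with a median of 0.04. None passed. Among 19 G protein subunits GNG10, a gamma subunit, was lower (-0.42 ± 0.07, limma adjusted p = 0.0847), as were GNB4 and GNA11, and GNAO1 was higher.

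**Figure D4:**
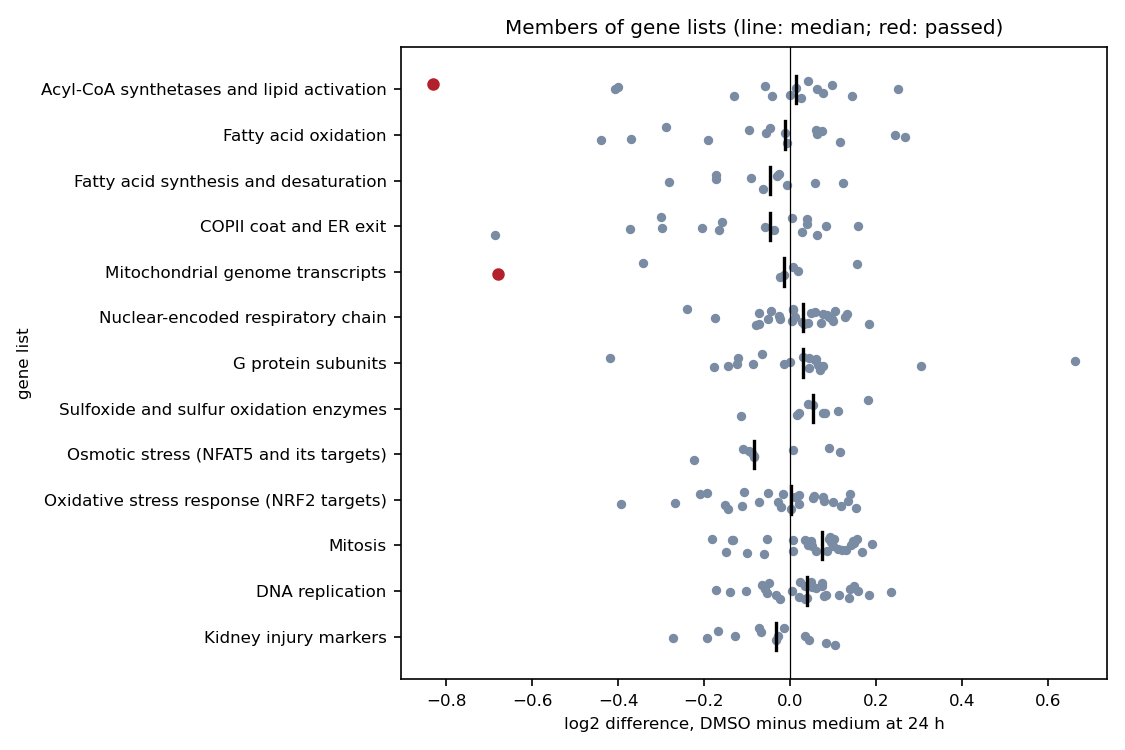
Each point is a tested gene of a list, placed by its log2 difference (DMSO minus medium at 24 h), with a black bar at the list's median and red for the genes that passed. The bars lie between -0.08 and 0.07, and the red points are ACSL4 at -0.83 and ND6 at -0.68.

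Control probe sets on the arrays also differed between the groups. The 18 probe sets of the hybridization spike-ins, bacterial transcripts added at a set amount with the labelled sample, were all lower on DMSO arrays. Their mean was 10.40, 10.38 and 10.55 with DMSO and 10.81, 10.71 and 10.64 in medium, a difference of -0.28 (3 of 3 pairs; two-sided exact permutation p = 0.1, the smallest 3 against 3 can give). At 48 h it was -0.27, again in 18 of 18 probe sets, and with ethanol at 24 h their mean was 11.07 ± 0.17 (SD, n = 3). The poly-A spike-ins, added before labelling, differed by -0.02. With limma no hybridization probe set passed (lowest adjusted p 0.361).

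Ribosomal RNA controls were lower with DMSO as well, and the 28S probe set at the 5′ end by more than any gene tested. It was at 8.28, 7.57 and 7.97 with DMSO and at 9.68, 8.95 and 9.53 in medium, a difference of -1.45 (limma adjusted p = 0.000848 over every probe set) and -0.79 at 48 h. The middle 28S probe set fell by less, -0.49 at 24 h (limma adjusted p = 0.166) and -0.32 at 48 h. RNA45SN5, the ribosomal RNA precursor among the genes tested, went the other way at 24 h, by 0.70. The mean of the 18S probe sets was 6.63, 6.30 and 6.98 against 7.48, 7.53 and 7.58, a difference of -0.89 at 24 h and -0.47 at 48 h. With ethanol the 28S 5′ probe set was at 10.58 ± 0.24 and 18S at 8.42 ± 0.63 (SD, n = 3), above medium where DMSO was below it. The ethanol means of all of the 11 genes but ZNF92 stood above medium too. They include VRK3 and FKBP8, which were higher with DMSO as well. The difference of 3′ and 5′ probe sets, a measure of RNA integrity, was 0.86 ± 0.15 with DMSO and 0.85 ± 0.18 in medium for actin, and -0.10 ± 0.04 and -0.11 ± 0.03 for GAPDH (exact permutation p = 0.9 for each). The part of the spike-in and ribosomal RNA signal in the differences of the 11 genes was not tested.

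**Figure D5:**
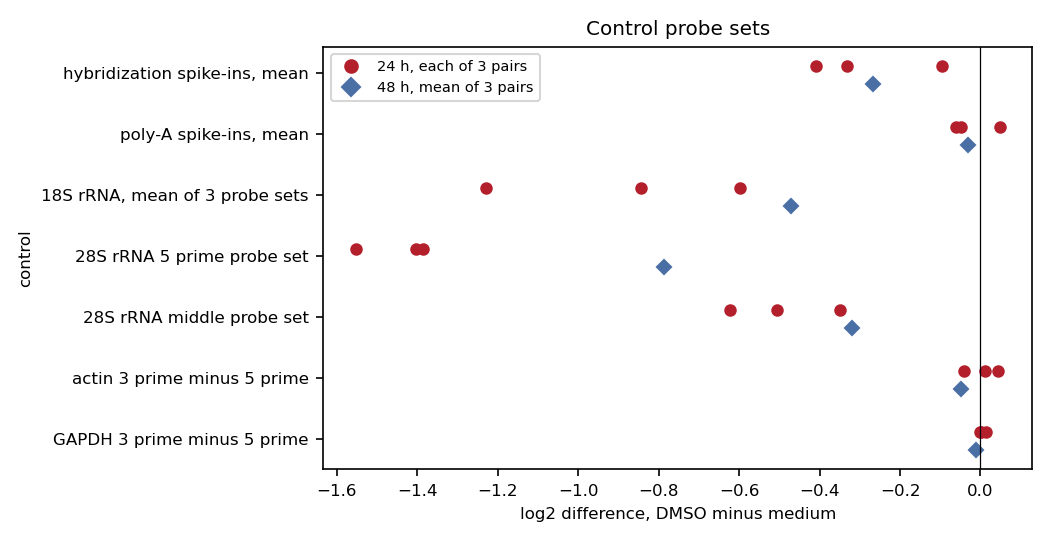
Red points are the log2 differences (DMSO minus medium, horizontal axis) of the 3 replicate pairs at 24 h and blue diamonds the means at 48 h, for each kind of control probe set. The 28S 5′ probe set is at -1.45 on average and the hybridization spike-ins at -0.28, whereas the poly-A spike-ins and the 3′ minus 5′ differences of actin and GAPDH lie near 0.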

How the data were processed

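The deposited values are log2 expression per probe set, made by the authors with GCRMA per the submitters' processing notes. GCRMA corrects background by probe GC content, makes arrays alike in distribution and summarises probes, so a shift common to all probes of an array cannot be seen. The sources used here do not name its version or which arrays it normalized jointly, and the log2 scale was read from the values. Of 54675 probe sets, 41091 had exactly 1 gene (41037 named through the gene identifier), 1801 several, 11721 no listed gene and 62 were controls. Past the filter, 19730 probe sets gave 10832 genes, and the probe set brightest on average over 18 arrays stood for each.

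The test was limma 3.58.1 (R 4.3.3) on the 12 arrays of DMSO and medium at 24 h and 48 h, as 4 group means with the replicate number as a block (6 residual and 3.157 prior degrees of freedom); the error given beside a difference is its moderated standard error. Tests were two-sided, with Benjamini-Hochberg adjustment over all genes. The replicates are biological as labelled. The p-values measure the spread between arrays that is left after the replicate block, pooled over both times, not the whole spread between replicates. Ethanol differences come from a fit of 18 arrays without the block. The numbers pair the arrays: same-numbered DMSO and medium arrays deviated from their group means together across genes, at r = 0.608, 0.692 and 0.731. Named genes were those that passed, the 10 largest rises and falls without overlap and a mean above 6, and up to 4 list members by smallest p. The comparison, the fit and the lists were chosen with earlier results of these data known. Alternatives were the block, the arrays in the fit, scaling, filter, probe set rule, moderation, array weights and each array left out. For arrays their number limits the precision.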

Additional observations from a re-analysis of the deposited data

Results flagged for a closer look

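FKBP8 and GNB4 were singled out because all 3 pairs went one way at 24 h and the opposite way at 48 h. FKBP8 had 0.55 at 24 h and -0.12 at 48 h, a difference between times of -0.67 ± 0.10 (SE; limma interaction, adjusted p = 1 over all genes). Its 24 h value was among those that passed, so this difference was in part chosen. The other probe set of FKBP8 past the level was about as bright in medium (6.71 against 6.67). It was lower at 24 h in 3 of 3 pairs, by -0.26. GNB4, a beta subunit of G proteins, had -0.18 and 0.07, a difference of 0.24 ± 0.09 (adjusted p = 1); its pairs were -0.20, -0.16 and -0.17 at 24 h and 0.15, 0.02 and 0.03 at 48 h. Neither difference passed.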

How the results depend on the processing

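For DMSO versus medium at 24 h, 11 genes passed, and the count moved with the fit. The replicate numbers pair the arrays; with no replicate block the count was 0 (460 genes at an unadjusted p under 0.05), and it was 0 with the 6 arrays at 24 h only (1544), with all 18 arrays without the block (204) and with it (326), with no filter on low values (1625) and with the mean of the probe sets of a gene (1021). A replicate block within each time gave 3, array weights 17, trend and robust moderation 112 (all 11 among them) and every probe set on its own, added after the data were seen, 31. Quantile normalization and median centring gave 9 each and a filter at log2 6 gave 12. Leaving out each array or replicate number in turn gave 0 to 3 at 24 h; leaving out DMSO 48 h replicate 2 gave 1 and DMSO 48 h replicate 3 gave 3, and each other array gave 0. At 48 h the count was 0 to 1, the 1 without DMSO 24 h replicate 1, and the difference between times gave 0 in each. No called gene turned direction in any of 27 alternatives. Over the alternatives their values passed in 55 of 297 instances and lost the call in 242. The list medians stayed between -0.21 and 0.11; 103 of 972 moved by more than the spread of the pairs. Other named genes became called in 21 instances, and 6 turned, all with the mean of their probe sets: XBP1 at 24 h to 0.032, ACLY at 24 h to 0.004, AXL at 24 h to 0.005, YAP1 at 24 h to 0.009, HNRNPA2B1 at 24 h to 0.014 and GNA11 at 24 h to 0.009. The cause was not tested.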

Other observations

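When every probe set was tested on its own (22646, limma with the replicate block), 31 passed: 28 lower and 3 higher with DMSO. The following were chosen after their values were seen. PPP1CB, a catalytic subunit of protein phosphatase 1, had a probe set at 9.47, 9.23 and 9.95 with DMSO and 10.66, 10.39 and 10.68 in medium, a difference of -1.03 ± 0.14 (limma adjusted p = 0.0427), while its brightest probe set differed by -0.12. Probe sets for the ribosomal proteins RPL38 and RPL37A were lower by -0.76 ± 0.10 and -0.72 ± 0.09 (limma adjusted p = 0.0349 each), while their brightest probe sets, at 14.30 and 15.55 in medium, differed by -0.03 and -0.01. SUCLG2, a subunit of succinate-CoA ligase, was lower in a probe set at 9.83, 9.89 and 9.83 against 10.57, 10.44 and 10.59 (-0.68 ± 0.07, limma adjusted p = 0.0309), and its brightest probe set had -0.28 ± 0.07 and did not pass.

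CEP350, a centrosome protein, was higher in a dim probe set, by 0.84 ± 0.08 (limma adjusted p = 0.0309), and at -0.12 in its brightest. BCL2L11, which encodes the proapoptotic BIM, was lower in a probe set by -0.63 ± 0.09 and level in its brightest (-0.01). PLA2G12A, a secreted phospholipase A2, was lower by -0.51 ± 0.07 in a probe set and 0.25 higher in its brightest, both near 8.7 to 8.8 in medium. Of the 31, 7 had no listed gene and 1 several, and all 8 were lower. The sequence that each probe set reads was not tested.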
